A study of Arabidopsis thaliana with 72 samples.

Results

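Citral, a lemon-scented plant volatile, consists of the isomeric monoterpene aldehydes geranial and neral. The response of Arabidopsis thaliana shoots 12 h after citral was measured by RNA sequencing in 3 shoot libraries from citral-treated seedlings and 3 from seedlings given ethanol, 6 of the 72 libraries of the series. They were chosen by their organ, agent and time labels, and all 22122 loci of the table were considered. Seedlings were 14 days old and grew with sucrose on agar plates under 16 h of light and 8 h of dark. Citral was given at 202 µM and the controls received 0.1% ethanol, per the series design. The treatment protocol in the labels instead names t-chalcone at 21 µM, given 7 h into the light, which would place the 12 h sample in the dark. The agent labels, which name citral, were followed here. No mutant, transgene or ecotype is named in the labels, and nothing says that the 3 replicates of a group are separate plates. The p-values therefore measure only the spread between libraries of a group, which may be technical. For the tests within shoots this spread was estimated over all shoot libraries of the series together. It thus rests largely on other hours and treatments, not on the 6 libraries compared alone. The series title concerns single-stranded DNA-binding proteins, which are described below with the other gene groups.

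The plant circadian clock is a loop of transcription factors in which the morning genes CCA1 and LHY repress evening genes such as TOC1, GI and PRR5 by binding a promoter sequence called the evening element. Many genes of starch breakdown and light harvesting cycle under this clock. Reactive aldehydes such as citral are met in leaves by glutathione S-transferases, glycosyltransferases, reductases and cytochrome P450 enzymes. The glutathione S-transferases among them use glutathione, which is made from assimilated sulfate.

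Levels are given as recovered reads per M of a library's reads after scaling by its TMM factor (CPM), in replicate order, and "the floor" means a deposited value of 1, the lowest in the table, taken as 0.5 read. The citral libraries held 3.541, 3.527 and 3.453 M reads. Ethanol replicates 1 and 3 held 16.83 and 15.33 M, but ethanol replicate 2 held 0.3265 M and had 73.9% of its loci at the floor. Of 4210 loci with a mean of 50 CPM or more in ethanol replicates 1 and 3, 1227 were at the floor in replicate 2, where 19.9 reads were expected at 50 CPM. Mitochondrial loci stood out there too, with 0.525% of the reads against 0.00168% and 0.00183% in replicates 1 and 3. The locus AT2G07706, numbered on chromosome 2, was at 16060 CPM in replicate 2 against 7.27 and 7.39 CPM in replicates 1 and 3. The fit gave replicate 2 a weight of 0.0257 against 1.44 and 1.48 for replicates 1 and 3, so the ethanol level rests on these 2 libraries, and means leave replicate 2 out. A gene is said to have risen or fallen "in every fit" when it passed an adjusted p under 0.05 in limma's test over all genes, in all 6 fits that left out 1 of the 6 libraries, and in the fit without library weights. The leaf markers RBCS1A, LHCB3, RCA and LHCA1 together came to 34990, 12490 and 29190 CPM in ethanol and 27000, 25580 and 28290 CPM in citral libraries.

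Each change at 12 h is measured against the ethanol controls, in which the level of the clock gene LHY differed between labelled hours. LHY averaged 46.3 CPM in untreated shoots at 0 h, 16.9 in ethanol shoots at 0 h, 2.80 at 1 h, 35.3 at 3 h and 1.68 at 6 h, and it stood at 771, 278 and 659.9 CPM at 12 h and at 425 CPM at 24 h. The 0 h and 24 h labels name the same hour of the day, yet LHY differed between them. Over all genes tested, 97.2% were within 2-fold between ethanol 12 h and ethanol 24 h (0.5 CPM added to each), and 87.2% between ethanol 12 h and untreated shoots at 0 h. Whether the labelled hours describe the light state of the 12 h and 24 h controls was not tested.

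With citral, 7406 of 19558 genes tested (37.9%) changed at 12 h, 3752 higher (19.2%) and 3654 lower (18.7%). Changes of at least 2-fold were called for 1289 genes higher (6.59%) and 927 lower (4.74%). The number depends on the 2 deep ethanol libraries: without ethanol replicate 1 it was 918 (4.68%), 478 higher (2.44%) and 440 lower (2.25%), and without replicate 3 it was 937 (4.79%), 574 higher (2.94%) and 363 lower (1.86%). In every fit 610 genes were called (3.12%), of which 413 rose (2.11%) and 197 fell (1.01%). Counts of list members given below are to be read against these shares. Values with ± below are log2 changes of citral over ethanol with the SE of the fit. The citral and ethanol libraries did not overlap, replicate 2 of ethanol aside, in 10826 genes (55.4%), so a gap between the groups is common here. These are libraries of whole shoots, in which fewer cells of a kind and less RNA per cell cannot be told apart. With the deposited scaling the balance of calls turned towards falls, with 3161 higher and 4570 lower. It turned towards rises without library weights, with 2206 higher and 1077 lower, where limma still gives low counts less weight. It did so too where the shallow ethanol library had full weight. The counts there were 4195 higher (21.4%) and 875 lower (4.47%) on log2(CPM + 0.5), and 2968 and 737 on log2(CPM + 0.1). On log2(CPM + 0.5) the median log2 change of all genes tested was 1.1, against -0.01, so list medians on that scale, called full-weight medians below, are to be read against 1.1.

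**Figure D1:**
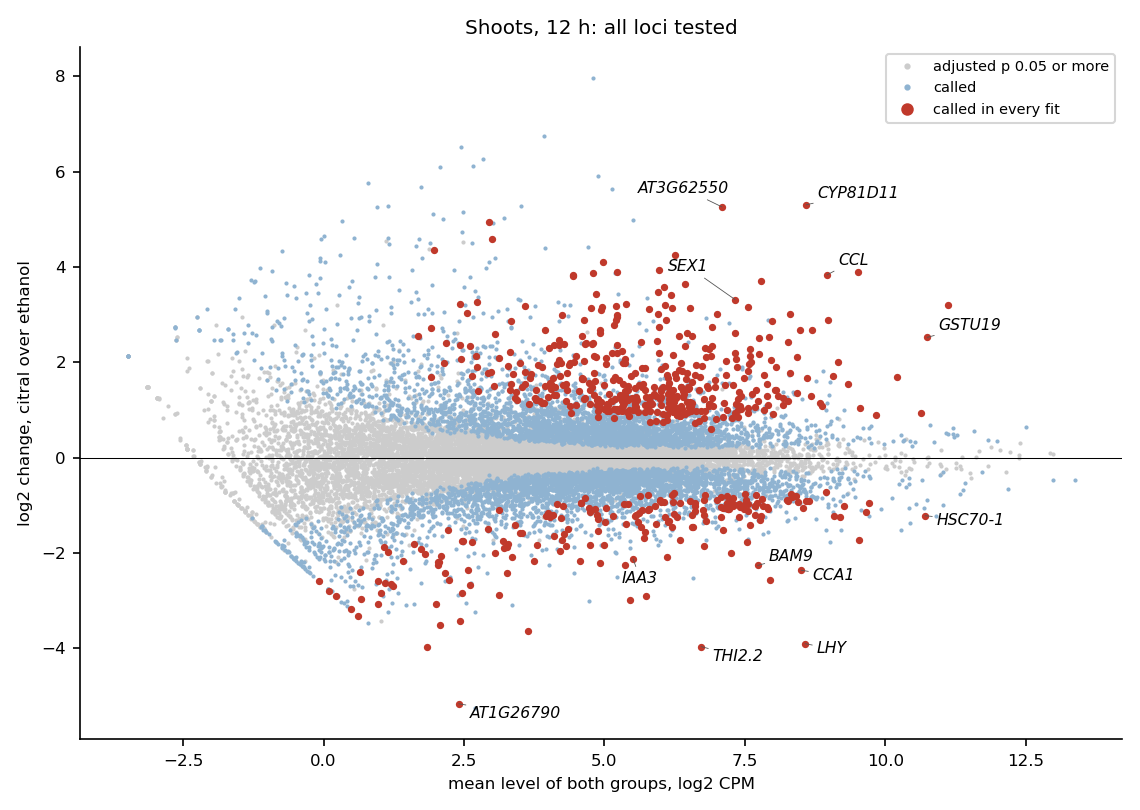
Each point is 1 of the 19558 genes tested in shoots at 12 h; the x axis is the mean level of both groups in log2 CPM and the y axis the log2 change of citral over ethanol. Red points are the 610 genes called in every fit, which reach from CYP81D11 at 5.31 and AT3G62550 at 5.26 down to AT1G26790, where all citral libraries are at the floor.

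Morning genes of the clock were lower with citral. Of the 13 on the list 8 fell and 3 rose (median log2 change -0.81, against -0.01 over all genes tested), 4 and 2 of them in every fit; the full-weight median was 0.66. LHY (chr1:33365-37871, TAIR10.1), a MYB-like repressor of evening genes, gave the CPM quoted above in ethanol and 54.0, 51.0 and 37.3 CPM in citral libraries. Its citral libraries lay far under every ethanol library, the shallow one included (log2 change -3.91 ± 0.18 SE, adjusted p = 9.36e-17). CCA1, its partner, was at 634, 146 and 581 CPM in ethanol and 123, 105 and 130.1 CPM in citral (log2 change -2.36 ± 0.17 SE, adjusted p = 1.33e-12), a gap that holds for every library. RVE8, a MYB-like activator of evening genes, fell from 182, 30.1 and 160.1 CPM to 53.1, 42.9 and 48.5 CPM, and here the shallow ethanol library lay under all citral libraries while the deep ones lay above (log2 change -1.85 ± 0.17 SE, adjusted p = 5.63e-10). RVE1, which links the clock to auxin, was the fourth to fall in every fit, by 2.0 on the log2 scale; AT5G17305 overlaps it.

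The morning-phased repressors PRR9 and PRR7, which act on CCA1 and LHY, went the other way. PRR9 was at 17.02, the floor and 18.2 CPM in ethanol and 53.1, 60.7 and 53.3 CPM in citral (log2 change 1.68 ± 0.18 SE, adjusted p = 1.17e-08). PRR7 was at 116, 45.2 and 105 CPM in ethanol and 342, 268 and 303 CPM in citral (log2 change 1.42 ± 0.14 SE, adjusted p = 8.34e-10), so both stood above all ethanol libraries. Calls that did not hold in every fit were falls of RVE2, RVE4, LNK2 and CDF1 and a rise of RVE7, with log2 changes of -1.49 ± 0.24, -0.81 ± 0.17, -1.52 ± 0.21, -0.71 ± 0.22 and 0.93 ± 0.19. LNK1 (-0.37 ± 0.2) and AT5G52660 (0.13 ± 0.16), a homeodomain-like gene of the same list, did not pass the test. With ethanol replicate 1 left out, and likewise without replicate 3, 2 morning genes rose and 4 fell.

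Evening genes were mostly higher. Of 15 on the list 10 rose and 1 fell (median log2 change 1.52), and GI, ELF3 and GRP7 rose in every fit. GI, which stabilises the F-box protein ZTL that marks TOC1 for degradation, was at 8.64, 7.53 and 9.12 CPM in ethanol and 59.2, 69.0 and 67.7 CPM in citral libraries. The groups are far apart, with the 3 ethanol values close together (log2 change 2.89 ± 0.21 SE, adjusted p = 2.17e-12). GRP7, an RNA-binding protein that damps its own rhythm, was at 33.2, 37.6 and 32.3 CPM in ethanol and 131, 117 and 149.9 CPM in citral, with every citral library above every ethanol one (log2 change 1.99 ± 0.18 SE, adjusted p = 1.81e-10). ELF3, which gates light input and belongs to the evening complex, changed by 1.52 ± 0.11, and antisense genes overlap it.

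PRR5, a repressor of CCA1 and LHY, was at 0.497, the floor and 0.266 CPM in ethanol and 10.2, 9.73 and 12.0 CPM in citral. Its rise, from a level close to the floor, did not hold with 1 deep control (log2 change 4.73 ± 0.58 SE, adjusted p = 1.17e-07, and 0.103 without ethanol replicate 1 or 0.0779 without replicate 3). TOC1, the first-named evening repressor, was at 13.9, 7.53 and 14.7 CPM in ethanol and 23.6, 31.5 and 30.4 CPM in citral (log2 change 1.02 ± 0.15 SE, adjusted p = 1.53e-06). Its groups did not overlap, and it likewise fell short of a call in every fit. Of the other evening complex members LUX changed by 1.03 ± 0.19, while ELF4, BOA and the TOC1 relative PRR3 were called from levels under 1 CPM in the deep ethanol libraries, and no fold is given for them. BBX19, a B-box protein, was the 1 evening gene to fall in every fit (-1.27 ± 0.2). The photoreceptor-like F-box genes ZTL (0.04 ± 0.1) and LKP2 (0.1 ± 0.13) and the CCA1 repressor CHE (0.27 ± 0.16) did not pass, nor did FKF1, which was above the floor only in citral replicate 3. When ethanol replicate 1 was left out, 3 evening genes rose and 1 fell, and without replicate 3, 4 rose and 1 fell.

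**Figure D2:**
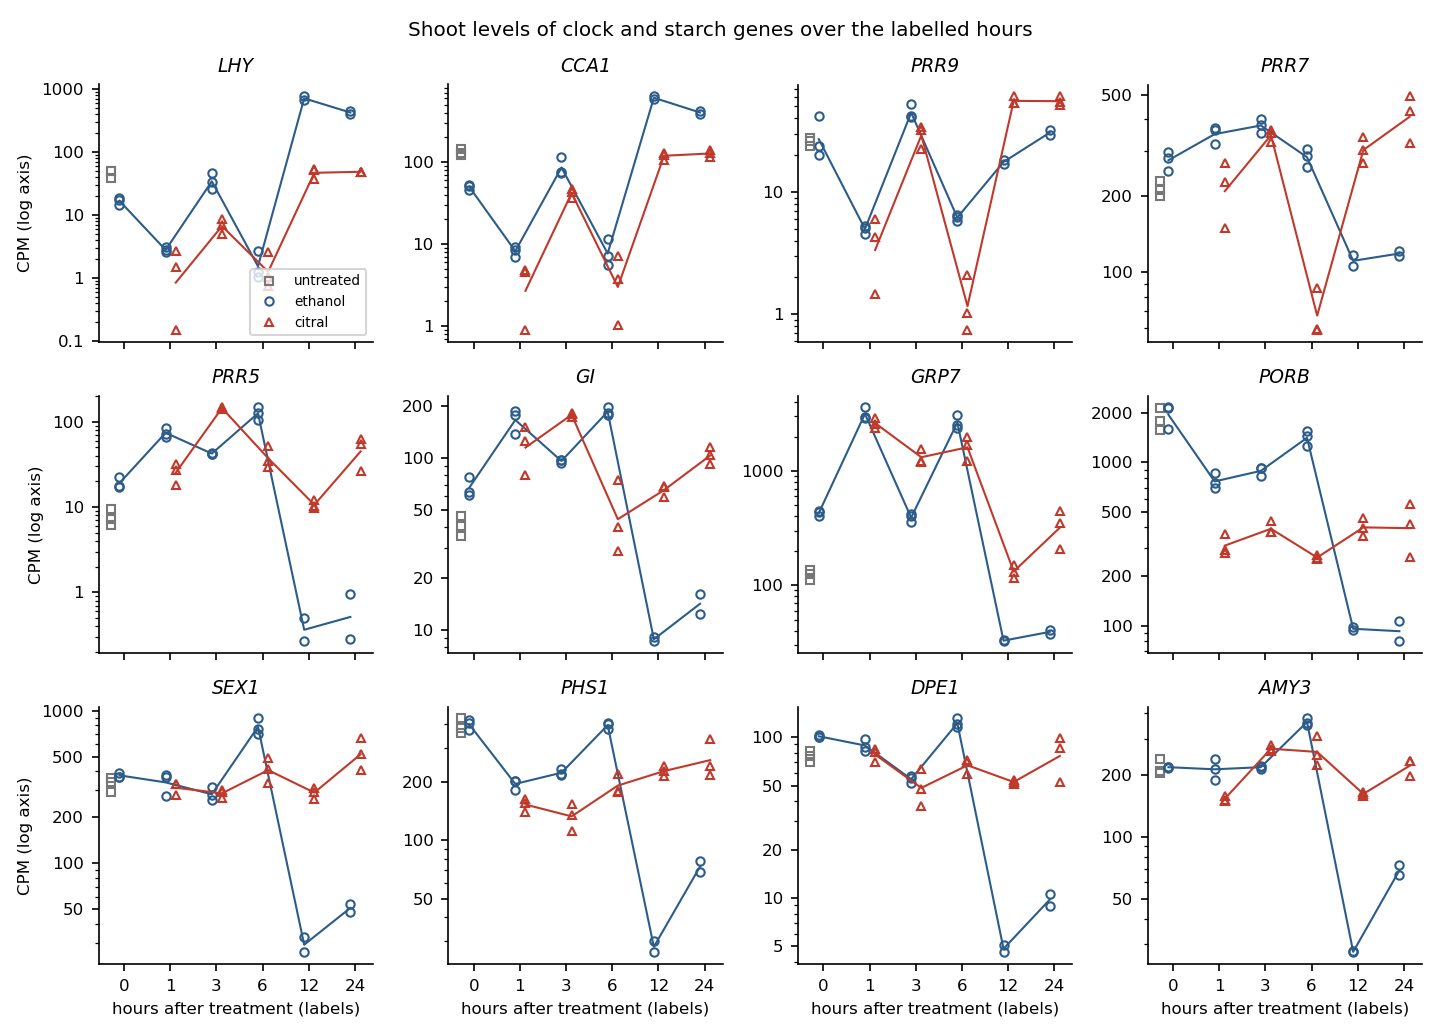
Levels of 12 genes in shoots (y axis, CPM on a log scale) against the labelled hour (x axis, 6 evenly spaced positions) in untreated, ethanol and citral libraries of 0.5 M reads or more; points are libraries and lines join geometric means. At 12 h LHY lies at 771 and 660 CPM in the deep ethanol libraries and at 54.0 CPM or less in citral, and SEX1 the other way round, at 26.2 and 32.9 against 265 CPM or more.

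The evening element was then looked for in promoters. Sequences were read from the TAIR10.1 genome of RefSeq, 250 bases before each gene's annotated start, and searched on both strands for AAAATATCT. It was present in 497 of 19460 windows of tested genes (2.55%), in 37 of the 413 that rose in every fit (8.96%) and in 4 of the 197 that fell (2.03%). In the evening list 7 of 15 windows held it (46.7%), and among the 15 largest rises 3 did. A match is a description of letters, not of a binding site. The 4 promoters below belong to genes that rose in every fit: GRP7 has 3 matches, and AT4G16146, CCL and PORB have 1 each. Capitals mark the motif on either strand, and the last base printed is the one before the gene's annotated start. The windows of CCL and PORB stop at a neighbouring gene.
GRP7, chr2:9266558-9266807, minus strand: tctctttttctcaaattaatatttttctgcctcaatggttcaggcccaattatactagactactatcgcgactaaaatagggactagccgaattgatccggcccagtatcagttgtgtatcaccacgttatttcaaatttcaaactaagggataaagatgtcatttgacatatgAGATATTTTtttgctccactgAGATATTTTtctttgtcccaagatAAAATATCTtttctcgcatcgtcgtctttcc
AT4G16146, chr4:9144584-9144833, minus strand: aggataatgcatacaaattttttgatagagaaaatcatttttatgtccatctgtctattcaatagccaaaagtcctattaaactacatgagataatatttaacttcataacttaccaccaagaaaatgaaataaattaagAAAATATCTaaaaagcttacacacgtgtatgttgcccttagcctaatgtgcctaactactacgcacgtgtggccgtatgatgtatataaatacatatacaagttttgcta
CCL, chr3:9827548-9827681, plus strand: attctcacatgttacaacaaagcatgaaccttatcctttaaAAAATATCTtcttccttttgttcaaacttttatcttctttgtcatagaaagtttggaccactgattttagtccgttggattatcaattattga
PORB, chr4:13725360-13725545, plus strand: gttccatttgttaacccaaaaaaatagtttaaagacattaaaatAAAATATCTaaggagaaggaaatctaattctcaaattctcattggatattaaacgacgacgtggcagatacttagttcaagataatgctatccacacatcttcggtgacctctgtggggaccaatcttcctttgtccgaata
The matches begin 76, 55 and 31 bases before the start of GRP7, 110 before AT4G16146, 93 before CCL and 142 before PORB. AT4G16146, annotated as a cAMP-regulated phosphoprotein 19-related protein, was at 0.435, the floor and 0.200 CPM in ethanol and 8.17, 4.87 and 9.33 CPM in citral libraries (log2 change 4.37 ± 0.48 SE, adjusted p = 6.86e-09). CCL, a CCR-like protein, was at 74.0, 123 and 53.4 CPM in ethanol and 1087, 779.9 and 938 CPM in citral (log2 change 3.83 ± 0.2 SE, adjusted p = 1.19e-14). For CCL the shallow ethanol library is the highest of its group and still far under the citral libraries.

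Genes of starch metabolism were mostly higher. Of the 24 genes of starch synthesis and breakdown on the list, 16 rose and 3 fell (median log2 change 0.92), 8 and 1 of them in every fit. The 8 were SEX1, PHS1, PHS2, DPE1, DPE2, AMY3, SEX4 and ISA3, all of which act in breaking starch down or using its maltose and short glucans. DBE1, an isoamylase of starch synthesis, rose too, by 1.3 on the log2 scale, though not in every fit. SEX1, the glucan, water dikinase that phosphorylates the granule surface (chr1:3580830-3590928, TAIR10.1), was at 26.2, the floor and 32.9 CPM in ethanol and 265, 295 and 313 CPM in citral libraries. The citral values lie about an order of magnitude above the ethanol ones (log2 change 3.32 ± 0.15 SE, adjusted p = 2.86e-18). AMY3, a plastid alpha-amylase, was at 27.8, the floor and 27.4 CPM in ethanol and 157, 166 and 162 CPM in citral, with little spread in either group (log2 change 2.56 ± 0.1 SE, adjusted p = 7.81e-20).

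DPE1, the plastid disproportionating enzyme, was at 5.09, 7.53 and 4.59 CPM in ethanol and 52.5, 54.4 and 50.9 CPM in citral (log2 change 3.44 ± 0.18 SE, adjusted p = 4.97e-16). PHS1, the plastid alpha-glucan phosphorylase, was at 26.3, 7.53 and 30.1 CPM in ethanol and 216, 227 and 242 CPM in citral (log2 change 3.02 ± 0.12 SE, adjusted p = 3.77e-19); AT3G29330 overlaps it on the other strand, and the use of strand in the counting is not given. Neither gene's groups overlap in any library. The cytosolic phosphorylase PHS2 (3.41 ± 0.19), the cytosolic transglucosidase DPE2 (2.35 ± 0.13), the phosphoglucan phosphatase SEX4 (2.4 ± 0.18) and the debranching enzyme ISA3 (2.36 ± 0.25) are given by their log2 changes. BAM9, a beta-amylase-like protein, fell in every fit, from 369.8, 206 and 330.1 CPM to 78.7, 65.0 and 79.2 CPM (log2 change -2.26 ± 0.19 SE, adjusted p = 7.46e-11). The call for the beta-amylase BAM5 rests on citral replicate 2 at 5.72 CPM, since it was at the floor in every other library. On leaving out ethanol replicate 1, and likewise without replicate 3, 8 starch genes rose and 2 fell.

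Photosynthesis genes were called in both directions. Of 20 light-harvesting genes 4 rose and 2 fell (a smaller share than the 37.9% of all genes; median 0.00), of 19 photosystem genes 9 rose and the others did not pass (median 0.30), and of 19 Calvin cycle genes 4 rose and 8 fell (median -0.32, full-weight median 0.17). Their calls did not hold in every fit. The photosystem I subunit PSAF changed by 0.61 ± 0.1, the antenna protein LHCA2 by 0.56 ± 0.12 and LHCB2.3 by -1.08 ± 0.18, the aldolase FBA1 by -1.05 ± 0.19 and the dehydrogenase subunit GAPA2 by -1.0 ± 0.13. In limma's fit without ethanol replicate 1, 0 members of these 3 lists were called (unadjusted p under 0.05 in 3, 4 and 3 of them), and without replicate 3 again 0 (1, 1 and 3). LHCB1 and small Rubisco subunit genes have near-identical copies, so their counts are uncertain.

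Among 13 genes of chlorophyll synthesis 1 rose and 6 fell (median -0.25). The 1 that rose was PORB, a protochlorophyllide reductase, at 97.6, 15.1 and 93.7 CPM in ethanol and 455, 399 and 352 CPM in citral (log2 change 2.06 ± 0.16 SE, adjusted p = 1.44e-11). Every citral library exceeded every ethanol library, and PORB rose in every fit, though AT4G27450 overlaps it. Untreated shoots at 0 h held 1842 CPM of it. CAO, which makes chlorophyll b, changed by -0.85 ± 0.11, and GUN4, which activates magnesium chelatase, by -0.82 ± 0.15. In the absence of ethanol replicate 1, 1 gene of this list rose, and without replicate 3, 1 rose and 1 fell.

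Detoxification genes rose strongly. Of 50 listed 49 were tested, 35 rose and 4 fell (median log2 change 1.62), and 14 rose in every fit. The largest rise called in every fit was that of CYP81D11, a cytochrome P450 (chr3:10788698-10790553, TAIR10.1), at 13.3, 22.6 and 27.1 CPM in ethanol and 661, 748 and 846 CPM in citral libraries. The groups are more than an order of magnitude apart (log2 change 5.31 ± 0.35 SE, adjusted p = 6.54e-12); AT3G28730 overlaps it. GSTU19, a tau-class glutathione S-transferase, was at 464, 284 and 576 CPM in ethanol and 2478, 3205 and 3072 CPM in citral (log2 change 2.52 ± 0.13 SE, adjusted p = 4.17e-16). The groups were apart in all libraries. GSTU1 of the same class was at 5.53, the floor and 10.7 CPM in ethanol and 95.1, 122 and 135 CPM in citral (log2 change 3.94 ± 0.24 SE, adjusted p = 1.94e-13). GSTU2 (4.59 ± 0.44, overlapped by AT2G29485) and GSTU7 (2.74 ± 0.23, overlapped by AT2G29410) also rose in every fit.

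Several genes of the detoxification list encode reductases or dehydrogenases. AER, an alkenal reductase that saturates the double bond of reactive aldehydes, was at 90.3, 15.1 and 139 CPM in ethanol and 601, 729.8 and 806 CPM in citral libraries (log2 change 2.68 ± 0.17 SE, adjusted p = 3.18e-13). OPR1, an oxophytodienoate reductase, was at 69.1, 42.7 and 118 CPM in ethanol and 1041, 1343 and 1701 CPM in citral (log2 change 3.9 ± 0.34 SE, adjusted p = 1.12e-09). Both stood clear of every ethanol library. OPR2, which neighbours and overlaps OPR1, changed by 2.78 ± 0.25, the aldehyde dehydrogenase ALDH7B4 by 1.72 ± 0.14, and AT5G16980, a zinc-binding dehydrogenase, by 4.25 ± 0.31. The glycosyltransferases UGT73B1, UGT73B2, UGT73B3, UGT73B5 and UGT75B1, which attach sugar to small molecules, changed by 2.16 ± 0.14, 2.62 ± 0.23, 3.0 ± 0.3, 3.2 ± 0.3 and 2.53 ± 0.25. Without ethanol replicate 1, 14 detoxification genes rose, and without replicate 3, 16 rose. The TGA core TGACG is a sequence bound by bZIP factors of the detoxification response. It was in 26 of the 50 windows of the list (52.0%) and in 19.4% of those of all genes tested. It was not particular to this list, since 7 of the 15 evening windows held it too (46.7%). Among genes that rose in every fit the share was 23.2%. Another sequence searched for, TTGAC, was in 36 of the 50 detoxification windows and in 45.0% of all. The evening element was in 1 of the 50 (2.0%).

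Genes of sulfate assimilation and glutathione synthesis, which lead to the glutathione used by glutathione S-transferases, rose too. Of 28 genes 27 were tested, 21 rose and the others did not pass (median log2 change 1.03), 4 of them in every fit. APR3, an adenosine phosphosulfate reductase of the key step of assimilation, was at 25.5, 7.53 and 38.1 CPM in ethanol and 252, 435 and 544 CPM in citral libraries. Its citral libraries spread more than most but lie well above the ethanol ones (log2 change 3.7 ± 0.36 SE, adjusted p = 1.13e-08); AT4G21980 overlaps it. SERAT2;1, a serine acetyltransferase on the way to cysteine, was at 58.4, 72.8 and 65.7 CPM in ethanol and 226, 250.1 and 309 CPM in citral (log2 change 2.07 ± 0.17 SE, adjusted p = 2.78e-11). Glutathione synthetase GSH2 changed by 1.09 ± 0.1 and the vacuolar sulfate exporter SULTR4;2 by 2.69 ± 0.28, both in every fit, and the first enzyme of glutathione synthesis, GSH1, by 0.78 ± 0.1. SUFE2, which activates cysteine desulfurases, is on no list and changed by 3.82 ± 0.29. With ethanol replicate 1 left out, 4 sulfate genes rose, and without replicate 3, 5 rose.

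Among the 15 largest rises that held in every fit several belong to no list. AT3G62550, annotated as an adenine nucleotide alpha hydrolase-like protein, was at 6.58, the floor and 6.86 CPM in ethanol and 269, 228 and 303 CPM in citral libraries (log2 change 5.26 ± 0.28 SE, adjusted p = 2.83e-14). The citral libraries were all far above the ethanol ones. AT1G56300, a DnaJ-domain protein overlapped by AT1G56290, changed by 4.95 ± 0.49 and AT5G43440, a 2-oxoglutarate-dependent oxygenase overlapped by AT5G43430, by 4.12 ± 0.23. The leucine-rich repeat protein AT2G15880 changed by 3.9 ± 0.34, the light-regulated zinc finger protein LZF1 by 3.87 ± 0.3, and the ankyrin protein ANK by 3.84 ± 0.37. The beta-glucosidase BGLU25, outside the 15, was at 9.44, the floor and 11.7 CPM in ethanol and 97.4, 137 and 107 CPM in citral (log2 change 3.47 ± 0.2 SE, adjusted p = 2.24e-14); AT3G03650 overlaps it. Its groups were well separated.

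The 15 largest falls that held in every fit mixed regulators, wall proteins and transporters. AT1G26790, a Dof-type zinc finger protein, was at 10.6, the floor and 10.3 CPM in ethanol and at the floor in all 3 citral libraries, at least 11.9-fold lower when 3 counts per citral library are taken as the limit (0.879 CPM). THI2.2, an antimicrobial thionin, was at 214, 103 and 182 CPM in ethanol and 11.1, 9.44 and 20.8 CPM in citral (log2 change -3.97 ± 0.33 SE, adjusted p = 2.43e-10). Both gaps hold against the deep ethanol libraries. COL2, a CONSTANS-like B-box protein, was at 478, 768 and 366 CPM in ethanol and 79.0, 65.0 and 73.2 CPM in citral (log2 change -2.56 ± 0.17 SE, adjusted p = 2.94e-13). Here the shallow library was the highest of all 6, and genes overlap COL2 at both ends.

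The chloride channel CLC-B changed by -2.99 ± 0.18, with overlapping genes, and the cytokinin-induced response regulator ARR15, near the floor with citral, by -3.98 ± 0.64. The others were AT4G02850 (-3.64 ± 0.42), a phenazine biosynthesis-like protein overlapped by AT4G02840, and the wall proteins HRGP1 (-3.51 ± 0.73) and XTH17 (-2.88 ± 0.51). AT4G38825 (-3.42 ± 0.76), a SAUR-like gene, the monodehydroascorbate reductase MDHAR (-3.07 ± 0.65) and AT2G27402 (-2.9 ± 0.23), annotated as plastid transcriptionally active, followed. AT5G19970 (-2.83 ± 0.45), annotated as a GRAS protein, AT1G74770 (-2.67 ± 0.44), a zinc ion binding protein, and GPAT1 (-2.56 ± 0.45), a glycerol-3-phosphate acyltransferase, complete the 15. Root marker genes fell beside them: of 10 listed 9 were tested, 6 fell and the others did not pass (median log2 change -1.21). Their summed level was 64.8, 55.2 and 45.3 CPM in ethanol and 14.9, 22.3 and 24.4 CPM in citral libraries, against 556 to 8407 CPM in the 6 root libraries of 12 h. The root hair gene COBL9, the iron transporter IRT1 and the nitrate transporter NRT2.1 were at the floor in all citral libraries. These are shallower than the deep ethanol libraries, so low genes reach the floor in them more easily. COBL9 averaged only 1.07 CPM in ethanol, a fall of at least 1.22-fold when 3 counts per citral library are taken as the limit. In limma's fit without ethanol replicate 1, 0 root markers were called (unadjusted p under 0.05 in 1), and without replicate 3, 2 fell. The part of root tissue in these falls was not tested.

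Auxin-responsive genes were lower. Of 18 genes 11 fell and 1 rose (median log2 change -0.92), 3 of them falling in every fit. IAA3, an auxin-induced repressor of auxin signalling, was at 74.5, 50.2 and 74.1 CPM in ethanol and 14.9, 16.6 and 19.3 CPM in citral libraries (log2 change -2.13 ± 0.17 SE, adjusted p = 1.03e-11); AT1G04230 overlaps it. IAA1 of the same family was at 32.3, 100.4 and 26.4 CPM in ethanol and 9.33, 9.44 and 9.64 CPM in citral (log2 change -1.6 ± 0.18 SE, adjusted p = 1.46e-08). In both genes all ethanol libraries exceeded all citral ones. IAA14 changed by -1.74 ± 0.26 in every fit, IAA2 by -0.89 ± 0.14, and the 1 gene that rose, the auxin efflux carrier PIN7, by 0.73 ± 0.19. When ethanol replicate 1 was left out, and likewise without replicate 3, 3 auxin genes fell. Of 13 wall-loosening genes 8 fell and 1 rose (median -0.55, full-weight median 1.24 with 2 higher and 0 lower), with XTH4 at -1.14 ± 0.18 and the riser XTH24 at 1.74 ± 0.31. On leaving out ethanol replicate 1, 1 wall gene fell, and in limma's fit without replicate 3, 0 were called (unadjusted p under 0.05 in 4).

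Flavonoid genes were lower as a group. Of 28 listed 24 were tested, 15 fell and 1 rose (median log2 change -1.28). CHIL, a chalcone isomerase-like enhancer of the pathway, was at 38.0, 25.1 and 39.3 CPM in ethanol and 6.71, 8.59 and 10.2 CPM in citral libraries (log2 change -2.16 ± 0.35 SE, adjusted p = 1.45e-05). The riser was MYBL2, a repressor of the pathway, at 81.1, 77.8 and 65.1 CPM in ethanol and 230.1, 190.0 and 216 CPM in citral (log2 change 1.51 ± 0.15 SE, adjusted p = 1.87e-09). The groups of both genes were apart in all libraries. The coumarate:CoA ligase 4CL3 (-1.99 ± 0.39) and the flavonol glycosyltransferase UGT78D1 (-1.08 ± 0.15) also fell in every fit. In the absence of ethanol replicate 1, and without replicate 3, 1 flavonoid gene rose and 3 fell.

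Salicylic acid genes were higher where they passed. Of 25 listed 22 were tested, 12 rose and the others did not pass (median log2 change 0.99). AT5G52810, annotated as a Rossmann-fold protein, rose in every fit, from 10.6, the floor and 13.5 CPM to 26.5, 44.1 and 39.1 CPM (log2 change 1.65 ± 0.16 SE, adjusted p = 3.92e-10). Without ethanol replicate 1, and without replicate 3, 1 salicylic acid gene rose. PNP-A, a natriuretic peptide-like protein, was at or near the floor in ethanol and at 9.62, 12.3 and 10.5 CPM in citral, and no fold is given. Of 29 jasmonate genes 28 were tested, 5 rose and 1 fell (21.4% called, under the 37.9% of all genes; median 0.61). AOC2, an allene oxide cyclase of jasmonate synthesis, was at 6.27, the floor and 10.5 CPM in ethanol and 49.6, 85.3 and 92.1 CPM in citral (log2 change 3.23 ± 0.29 SE, adjusted p = 1.05e-09) and rose in every fit. LOX2 (1.62 ± 0.34), a lipoxygenase of the same path, and JAR1 (0.91 ± 0.1), which makes the active conjugate, also rose. With ethanol replicate 1 left out, and without replicate 3, 2 jasmonate genes rose and 1 fell.

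Of 21 abscisic acid genes 20 were tested, 10 rose and 1 fell (55.0% called, against 37.9% of all genes, median log2 change 0.59). The protein phosphatase ABI1, a brake on the hormone's signalling, was at 33.0, the floor and 36.3 CPM in ethanol and 86.6, 80.7 and 116 CPM in citral (log2 change 1.41 ± 0.13 SE, adjusted p = 1.87e-10) and rose in every fit; AT4G26070 overlaps it. The dehydrin RAB18 was at 2.36, the floor and 3.59 CPM in ethanol and 24.8, 23.5 and 19.6 CPM in citral (log2 change 2.95 ± 0.36 SE, adjusted p = 2.18e-07). Its citral libraries were all higher, but the call did not hold in every fit. When ethanol replicate 1 was left out, and without replicate 3, 1 abscisic acid gene rose. Of 18 carbon starvation genes 6 rose and 1 fell (38.9% called, near the 37.9% of all genes; median 0.36). IVD, of branched-chain amino acid breakdown, changed by 1.68 ± 0.24, the beta-glucosidase BGLU30 by 3.21 ± 0.36, and the proline dehydrogenase ERD5 was the 1 that fell (-1.78 ± 0.26). In limma's fit without ethanol replicate 1, 0 were called (unadjusted p under 0.05 in 4), and without replicate 3, 1 rose.

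Heat shock genes split. Of 29 genes 10 rose and 4 fell (48.3% called, against 37.9% of all genes, median log2 change 0.62). HSC70-1, a constitutive chaperone, was at 2234, 785 and 2472 CPM in ethanol and 1059, 1032 and 914 CPM in citral libraries. It fell in every fit although the shallow ethanol library lay under the citral ones (log2 change -1.22 ± 0.11 SE, adjusted p = 1.3e-10). HSP90.2, a cytosolic chaperone, was at 407, 146 and 549 CPM in ethanol and 153, 214 and 211 CPM in citral (log2 change -1.26 ± 0.21 SE, adjusted p = 2.23e-05). The small heat shock proteins HSP17.4, HSP17.6A and AT1G53540 were under 1 CPM in the deep ethanol libraries and stood at 30.04, 59.5 and 76.5, 9.92, 24.3 and 32.5 and 12.0, 31.8 and 46.4 CPM in citral libraries. All 3 were lowest in citral replicate 1, their calls did not hold in every fit, and no fold is given. Of 18 genes of the unfolded protein response 8 rose (44.4%, against 19.2% of all genes) and the others did not pass (median 0.53). The risers included the disulfide isomerases PDIL1-1 (0.94 ± 0.13) and PDIL1-2 (1.13 ± 0.18) and the calreticulin CRT3 (0.75 ± 0.12). On leaving out ethanol replicate 1, 2 heat shock genes fell and limma called 0 of the unfolded protein response (unadjusted p under 0.05 in 4). Without replicate 3, 1 heat shock gene fell and 2 genes of the unfolded protein response rose. The heat shock element, searched on both strands as GAA, TTC and GAA units with 2 bases between neighbours, was in 5 of the 29 windows of the heat shock list (17.2%) and in 0.411% of all.

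Genes of single-stranded DNA-binding proteins were called about as often as all genes. Of 22 genes 3 rose and 6 fell (40.9%, against 37.9% of all genes tested; median log2 change -0.23, full-weight median 1.29), and their calls did not hold in every fit. RPA1A, a large subunit of replication protein A, was at 4.22, the floor and 5.32 CPM in ethanol and 8.17, 8.01 and 8.43 CPM in citral (log2 change 0.8 ± 0.19 SE, adjusted p = 0.00123). RPA3B, a small subunit, was at 28.0, the floor and 27.8 CPM in ethanol and 18.7, 16.3 and 15.05 CPM in citral (log2 change -0.75 ± 0.14 SE, adjusted p = 7.46e-05). The deep libraries of both genes were apart from the citral ones. The other risers were the organelle proteins OSB2 (0.29 ± 0.1) and ODB1 (0.43 ± 0.14), and the other genes that fell were RPA1B (-0.76 ± 0.28), OSB3 (-0.37 ± 0.11), MTSSB (-0.5 ± 0.18), WHY3 (-0.55 ± 0.15) and ODB2 (-0.58 ± 0.15). For RPA1B, RPA3B, OSB3, MTSSB, WHY3 and ODB2, all at the floor in ethanol replicate 2, the sign turned positive when that library had full weight on a log2(CPM + 0.5) scale. In limma's fit without ethanol replicate 1, 0 were called (unadjusted p under 0.05 in 3), and without replicate 3 again 0 (2).

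**Figure D3:**
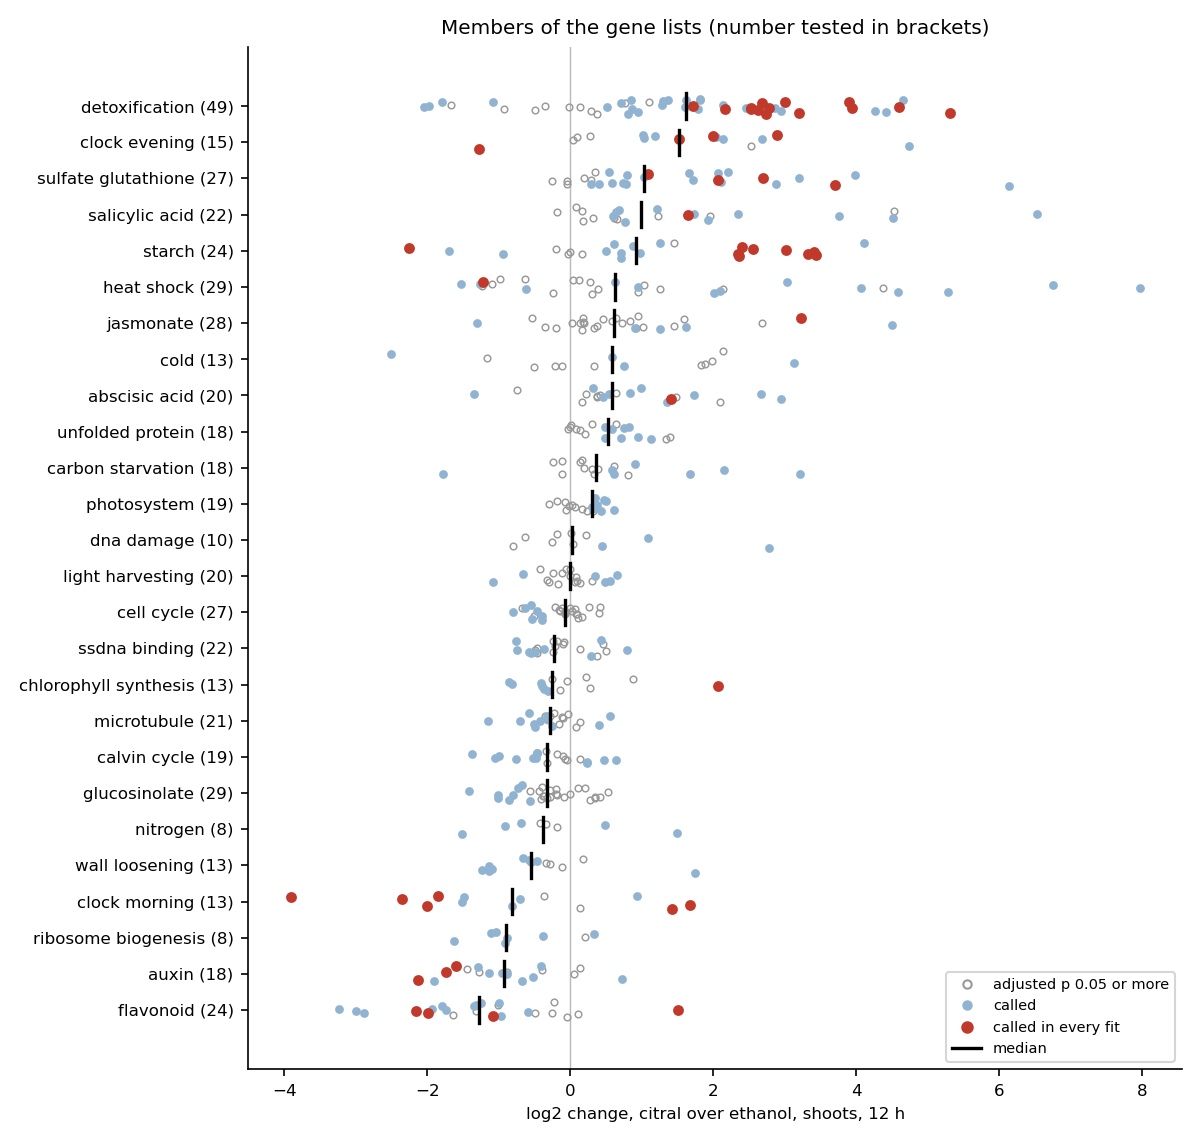
Each point is a gene of a list, placed by its log2 change of citral over ethanol in shoots at 12 h (x axis); rows are 26 gene lists with the number tested in brackets, sorted by their median (black bar). Red points are called in every fit; detoxification has 14 of them, the most, and its median is 1.62, while flavonoid genes have the lowest median, -1.28.

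Responses at 12 h were set against those at 6 h, each to its own ethanol controls, and the difference was tested for every gene. It passed for 6316 genes (32.3%), with 3406 more positive at 12 h (17.4%) and 2910 more negative (14.9%). Starch and clock output genes carried large differences: SEX1 changed by -0.98 at 6 h and 3.32 at 12 h (difference 4.3, adjusted p = 2.94e-17), and GI by -2.16 and 2.89 (difference 5.06, adjusted p = 2.18e-14). PORB went from -2.45 at 6 h to 2.06 at 12 h (difference 4.51, adjusted p = 1.47e-15). Their control levels had moved between the hours, SEX1 from 787 CPM in ethanol at 6 h to 29.6 CPM at 12 h. HSC70-1 went the other way, from 0.98 to -1.22 (difference -2.2, adjusted p = 9.85e-13). For CYP81D11 the responses were 5.27 and 5.31, and the difference did not pass (0.04, adjusted p = 0.964). GSTU19 was up by more at 6 h, 4.52 against 2.52 (difference -2.0, adjusted p = 5.55e-10). Without ethanol 12 h replicate 1 the count was 2359, and without replicate 3 it was 1806.

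Against 24 h the difference passed for 699 genes (3.57%), 422 more positive at 12 h (2.16%) and 277 more negative (1.42%). PHS1 changed by 3.02 at 12 h and 1.93 at 24 h (difference 1.09, adjusted p = 0.00166). For SEX1 the responses were 3.32 and 3.43 and the difference did not pass (-0.11, adjusted p = 0.842). BGLU25 changed by 3.47 at 12 h, 1.13 at 24 h and 0.51 at 6 h (difference to 24 h 2.34, adjusted p = 0.00202). With ethanol 12 h replicate 1 left out limma called 0 genes (unadjusted p under 0.05 in 912), and with replicate 3 left out also 0 (1258), so the count depends on both, and ethanol at 24 h also has a library under 0.5 M reads. Other single libraries also moved the count by over 1.5 times, and their range is given with the processing alternatives.

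Roots given citral for 12 h were set against their own controls. The response differed between shoots and roots for 5085 of 21100 genes (24.1%), 2941 more positive in shoots (13.9%) and 2144 more negative (10.2%). AMY3 changed by 2.56 in shoots and 0.79 in roots (difference 1.81, adjusted p = 8.8e-15), and BGLU25 by 3.47 and 0.15 (difference 3.36, adjusted p = 4.29e-18). For LHY the changes were -3.91 and -4.1 and the difference did not pass (0.23, adjusted p = 0.669). CYP81D11 changed by 5.31 and 3.01 (difference 2.33, adjusted p = 1.54e-07). AER changed by less in shoots, 2.68 against 3.46 (difference -0.75, adjusted p = 0.00414). The shoot and root responses were fitted over all 72 libraries for this test, so a difference can deviate slightly from that of the printed responses.

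**Figure D4:**
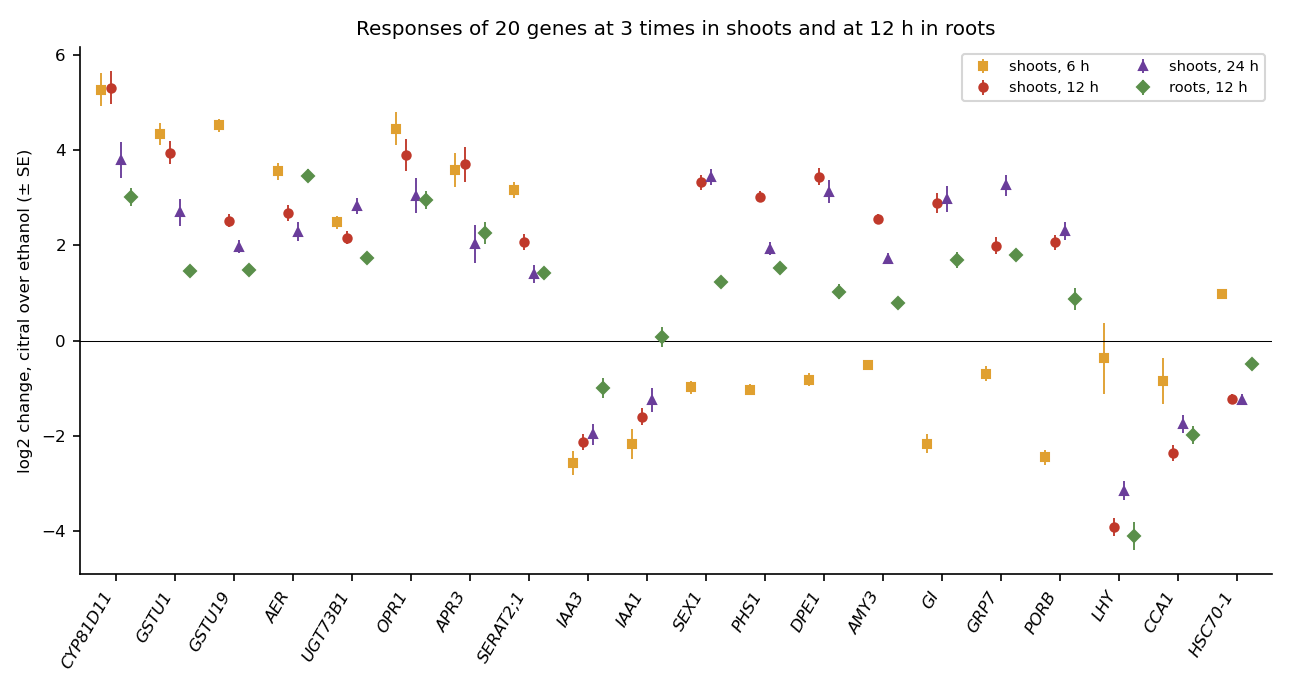
Log2 change of citral over ethanol with its SE (y axis) for 20 genes (x axis) in shoots at 6, 12 and 24 h and in roots at 12 h. CYP81D11 lies at 5.27 and 5.31 at 6 and 12 h in shoots, whereas SEX1, PHS1, DPE1, AMY3, GI, GRP7 and PORB lie under 0 at 6 h and above 0 at 12 h.

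The level after citral was also placed within the range of the 7 control groups of shoots (untreated at 0 h, and ethanol at each of the 6 hours). Of the 3752 genes that were higher, 1629 (43.4%) stood above all 7 control means, against 12.8% of all genes tested. Of the 3654 that were lower, 1256 (34.4%) stood under all 7, against 14.2% of all. The 7 groups include ethanol at 12 h, against which these genes were called. Both shares are therefore raised by the choice of genes. Among the 413 that rose in every fit the citral level was within 2-fold of untreated shoots at 0 h for 299 (72.4%) and of ethanol shoots at 24 h for 141 (34.1%), both below the shares over all genes tested (88.7% and 89.1%). SEX1, for example, averaged 333 CPM in untreated shoots at 0 h, close to its citral level at 12 h. Ethanol at 12 h was within 2-fold of ethanol at 24 h for 93.95% of the 413. The low share for ethanol at 24 h therefore also follows in part from the choice of genes. These values compare separate libraries of different labelled hours and carry no test.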

How the data were processed

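A single table was deposited, with 22122 loci and 72 libraries (0 sample columns not used), whose whole-number values were treated as a score. Per the submitters' processing notes the build was TAIR10. Which aligner and counter were used, and whether strand was used, is not given in the sources used here. Low values (up to 150) were whole-number multiples of a library's own factor, rounded, for at least 98.7% of values, with factors of 0.6655 to 1.311. For factors under 1 every whole number meets this, so the share is no check there. That holds for shoot ethanol replicate 2 at 12 h, whose factor was 0.782. Division by the factor gave recovered reads, with 0.5 read set for the floor. Depth was 0.183 to 20.6 M reads; a locus at 1 CPM then rests on 3.32 to 3.49 reads in the citral libraries compared. Bounds cover counting error only.

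The test was limma's voom (limma 3.58.1, R 4.3.3) with library quality weights and a robust prior on the 36 shoot libraries as 12 group means. Scaling between libraries used TMM factors, calculated here with 30% of the log ratios and 5% of the abundances trimmed. Loci needed 1 CPM in 3 libraries, and Benjamini-Hochberg adjustment ran over all genes tested with a threshold of 0.05. Differences between times used the same fit, and the difference between organs used all 72 libraries. Means leave out libraries under 0.5 M reads. The step was tested on simulated data of the same depths. In these the shallow ethanol library differed from its group only in depth, so its other features were not covered.

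Libraries were grouped by the organ, agent and time labels. The comparison, gene lists and tests were chosen with earlier results of these data known. Named genes are the 15 largest rises and falls called in every fit with a mean of 5 CPM or more, and marker genes. Clock genes are named but for an evening gene that rose, and single-stranded DNA-binding genes with those not called given as a count. The other lists give up to 5 called members in each direction, and each difference 5 genes in each direction. SEX4, PHS2, ISA3, GSTU7, UGT73B2, UGT73B3, UGT73B5, UGT75B1, OPR2, ALDH7B4, BAM5, DBE1 and NRT2.1 fall outside these rules and were named after their values were seen. Gene names, overlaps and promoter sequences came from the TAIR10.1 annotation of RefSeq, in which 21979 loci were found; the files give no coordinates. Alternatives were other weights, scalings, filters, pseudocounts and fits, and leaving out each library.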

Additional observations from a re-analysis of the deposited data

Results flagged for a closer look

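The citral response in shoots at 12 h differed from that at 6 h for 6316 genes in a test of the difference itself. For the genes with the smallest p in each direction the difference, 12 h minus 6 h on the log2 scale, was 3.07 for AMY3, 4.06 for PHS1, 4.3 for SEX1, 4.62 for the Hsp70 nucleotide exchange factor-like Fes1B and 3.9 for the antenna gene LHCB1.2. In the other direction it was -2.2 for the chaperone HSC70-1, -2.81 for BETA-OHASE 1, a carotenoid hydroxylase, -2.98 for the beta-glucosidase BGLU11, -2.58 for ASG1 and -1.88 for the DnaJ protein J3. LHCB1.2 has near-identical copies.

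Against 24 h the response differed for 699 genes. The difference, 12 h minus 24 h, was 1.09 for PHS1, 1.19 for AT1G56190, a phosphoglycerate kinase, 1.47 for AT4G18970, a GDSL-like lipase, 2.28 for AT2G41090, an EF-hand protein, and 2.34 for BGLU25. It was -1.77 for AT1G66760, a MATE efflux protein, -1.7 for ACR9, an ACT domain protein, -1.15 for AT4G27130, a SUI1 translation factor, -2.23 for AT3G15450, annotated as aluminum induced, and -1.54 for AT4G29905, which is uncharacterized.

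Between organs the 12 h response differed for 5085 genes. The difference, shoots minus roots, was 1.81 for AMY3, 3.36 for BGLU25, 2.09 for AT1G13990, 2.23 for MUM2, a glycosyl hydrolase, and 2.45 for AT1G33970, a P-loop NTPase. It was -0.82 for the Rubisco subunit RBCS1A, -1.68 for the RNA helicase PRH75, -2.58 for the cytochrome P450 CYP86A2, -2.33 for the F-box protein AT2G16365, -3.39 for the expansin-like EXLB1 and -2.25 for AT2G44230. For the 2 groups compared, 3 libraries each are too few to look for single libraries that stand apart by a rule on gaps.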

How the results depend on the processing

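At 12 h 7406 genes were called; the fit without library weights called 3283 and that on log2(CPM + 0.1) called 3705, and leaving out 1 library gave 918 to 7430. The other counts stayed within 1.5 times: 7731 with the deposited scaling, 7512 with quantile normalization, 7053 with a 5 CPM filter, 8446 with no filter, 5070 on log2(CPM + 0.5), 7377 with deposited values as reads, 6112 with 6 libraries and 7889 with 72. The 6316 differences from 6 h became 2663 without weights, 1597 and 1156 on log2(CPM + 0.5) and log2(CPM + 0.1), and 1806 to 6328 with a library left out. The 699 differences from 24 h became 11 without weights, 2013 with no filter, 15 and 10 on those log scales, and 0 to 804 with a library left out; with the deposited scaling 118 of 549 were more positive, against 422 of 699. The 5085 differences between organs became 1663 without weights, 2177 and 1028 on those log scales, and 3408 to 5195 with a library left out. The log scales give the shallow ethanol library full weight. The fit without library weights lowers its weight only through its low counts.

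Of 152 named genes called at 12 h, 87 stayed called without ethanol replicate 1 and 87 without replicate 3. Many of them were named because they passed these same fits, so these numbers are in part fixed by that choice. Over all genes tested the count went from 7406 to 918 and 937. Signs turned on log2(CPM + 0.1) and log2(CPM + 0.5) for AT2G44230 (1.26 and 0.52), CDF1 (1.98 and 1.23), MTSSB (1.88 and 1.14), ODB2 (2.24 and 1.48), OSB3 (2.57 and 1.8), RPA1B (1.24 and 0.57), RPA3B (1.96 and 1.21), RVE2 (1.47 and 0.72), RVE4 (0.26 and 0.26) and WHY3 (2.15 and 1.39), and on the first scale for 4CL3 (0.34). Without weights they turned for ODB2 (0.12), OSB3 (0.41) and WHY3 (0.04). On log2(CPM + 0.5) the medians of the morning clock, Calvin cycle, glucosinolate, wall-loosening, single-stranded DNA-binding, cell cycle, microtubule, ribosome biogenesis and shoot marker lists turned from negative to positive, and with the deposited scaling that of the DNA damage list turned to -0.06. No paired analysis was possible because the labels give no replicate numbers that link citral and ethanol libraries.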

Other observations

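Ribosome biogenesis genes were lower. Of 8 listed 6 fell and 1 rose (median log2 change -0.90, against -0.01 over all genes tested; full-weight median 0.78 with 2 higher and 2 lower), though none of these calls held in every fit of limma. NOP56, a core protein of box C/D particles that modify ribosomal RNA, was at 158, 238 and 218 CPM in ethanol and 80.8, 103 and 81.3 CPM in citral libraries (log2 change -1.04 ± 0.17 SE, adjusted p = 1.15e-05); AT1G56105 overlaps it. CBF5, the pseudouridine synthase of box H/ACA particles, changed by -1.11 ± 0.19, and the nucleolar RNA helicase PRH75, on no list, fell in every fit. Without ethanol replicate 1, 4 listed genes fell, and without replicate 3 limma called 0 (unadjusted p under 0.05 in 4).

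Of 21 microtubule genes 9 fell and 2 rose (median -0.29, full-weight median 0.16). The beta-tubulins TUB3 (-0.49 ± 0.1) and TUB9 (-0.51 ± 0.11) fell, while TUB5 (0.4 ± 0.1) and the crosslinker MAP65-1 (0.55 ± 0.1) rose. Of 30 glucosinolate genes 29 were tested, 8 fell and the others did not pass (median -0.32, full-weight median 0.78). The 27.6% called compares with 18.7% lower and 37.9% called in either direction over all genes. Among those that fell were the S-oxygenase FMO GS-OX1 (-1.41 ± 0.37) and the C-S lyase SUR1 (-0.56 ± 0.17). Of 27 cell cycle genes 7 fell (25.9%, against 18.7% of all genes; median -0.08, full-weight median 1.25), and of 13 DNA damage genes 10 were tested and 3 rose (against 19.2% of all genes; median 0.02, -0.06 with the deposited scaling). In limma's fits without ethanol replicate 1 or 3, 0 members of these 4 lists were called, against 4.68% and 4.79% of all genes; in list order, unadjusted p was under 0.05 in 5, 5, 2 and 1 without replicate 1 and in 4, 0, 0 and 1 without replicate 3.

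Of 8 nitrogen genes 3 fell and 2 rose (62.5% called, against 37.9% of all genes, median -0.38). The nitrate reductase NIA2 was at -0.69 ± 0.16 and the asparagine synthetase ASN2 at -1.52 ± 0.21. Of 13 cold genes 3 rose and 1 fell (30.8% called, against 37.9% of all genes; median 0.59), and the 1 that fell was KIN2, at 47.6, 7.53 and 79.9 CPM in ethanol and 7.00, 10.3 and 16.3 CPM in citral libraries (log2 change -2.51 ± 0.44 SE, adjusted p = 5.36e-05). Without ethanol replicate 1, 1 gene of each list fell, and in limma's fit without replicate 3, 0 were called (unadjusted p under 0.05 in 1 and 3).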
